A study of Mus musculus with 8 samples.

Results

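The genes that encode the proteins of the cytosolic ribosome were examined in 2 sorted cell populations of adult mouse bone marrow. Members were taken by gene symbol, namely every Rpl or Rps symbol followed by a number and an optional paralog suffix, together with Rplp0, Rplp1 and Rpsa. Kinase genes of the Rps6k group and numbered pseudogenes were left out. This gave 65 of the 24011 named genes of the table, each with 1 probe set. Another 26 symbols that meet the rule, among them Rpl11, Rps6, Rps4x and Rpl39, were not analysed here. The 65 comprise 22 proteins of the small subunit, 33 of the large subunit, 8 paralog genes and 2 copies, Rpl6l and Rpl32l. RefSeq lists Rpl6l and the paralog Rps4l as pseudogenes.

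Both groups were C57Bl6 mice described as adult, with no treatment or genetic change named. Lin+ cells, which carry surface antigens of mature blood lineages and so are a mixture of cell types, made up 4 samples, each on 1 array. The other 4 samples were HSC-enriched cells, a small marrow fraction with many of its haematopoietic stem cells (HSCs). Sample labels give these as LSKCD105+CD48neg, where LSK stands for lineage-negative, Sca-1-positive and Kit-positive, while the design text names CD150 in place of CD105. Array medians of the log2 values ran from 5.23 to 5.33, and correlations across genes, which are not replicates, were 0.978 to 0.986 within groups and 0.893 to 0.922 between them. Kit and Eng (CD105) were 9.19-fold and 7.78-fold higher in HSC-enriched cells and Cd48 was 12.9-fold lower, all genes of antigens in the labelled gate. The 13 measured HSC marker genes, Kit and Eng among them, were all higher. The labels do not say whether samples came from separate or pooled animals, so p-values refer to the variation among these 8 arrays, part or all of which may be technical.

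A ribosome consists of a small subunit, which reads the messenger RNA, and a large subunit, which joins amino acids. Each subunit is a core of ribosomal RNA that carries many different proteins, nearly all needed in equal number. Messenger RNAs of ribosomal proteins typically begin with a C followed by a run of pyrimidines, the TOP (terminal oligopyrimidine) sequence, through which mTOR and Larp1 adjust their translation. Haematopoietic stem cells are known for a low rate of protein synthesis per cell, and inherited loss of 1 copy of certain ribosomal protein genes causes Diamond-Blackfan anaemia, a failure of red cell formation. The arrays measured messenger RNA relative to all other messenger RNA on the same array. They give neither protein synthesis nor the amount of ribosome per cell, and fewer cells of a type and less RNA per cell cannot be told apart.

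The starts of 6 of these genes are shown to set starts with a TOP-like run beside starts without one, in genes whose values differ below. They are Rpl14, Rpl27a and Rpl15, which rose in HSC-enriched cells, and Rpl35a, which did not pass the test, all with such a run. The pair Rpl22 and Rpl22l1 have none that begins within the limits given below. Each line runs from 60 bases before the annotated start of transcription to 20 bases after it, from the RefSeq table of build GRCm38.p6. The positions are chr9:120571457-120571536 (plus strand) for Rpl14, chr7:109519135-109519214 (plus) for Rpl27a, chr14:18270967-18271046 (minus) for Rpl15, chr16:33056422-33056501 (plus) for Rpl35a, chr4:152325666-152325745 (plus) for Rpl22 and chr3:28805448-28805527 (plus) for Rpl22l1. Capitals mark a C followed by at least 4 bases that are C or T. The C lies between 3 bases before the start and base 3 of the transcript. A run in Rpl22l1 begins just past that limit, and Rpl22 has one further upstream, so neither is marked. Where a gene has several annotated starts, one with such a run is shown if there is one.
Rpl14: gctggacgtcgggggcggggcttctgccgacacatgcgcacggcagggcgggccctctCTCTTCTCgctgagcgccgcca
Rpl27a: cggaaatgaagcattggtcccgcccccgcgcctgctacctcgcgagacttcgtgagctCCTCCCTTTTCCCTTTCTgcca
Rpl15: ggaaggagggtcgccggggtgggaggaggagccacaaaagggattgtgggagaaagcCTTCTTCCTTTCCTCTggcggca
Rpl35a: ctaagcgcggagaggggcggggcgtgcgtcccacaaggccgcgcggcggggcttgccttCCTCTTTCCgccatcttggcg
Rpl22: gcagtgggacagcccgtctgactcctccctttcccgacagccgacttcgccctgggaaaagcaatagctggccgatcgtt
Rpl22l1: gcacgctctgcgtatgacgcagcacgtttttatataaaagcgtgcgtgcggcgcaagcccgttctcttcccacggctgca

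Promoter windows, from 250 bases before to 50 after the start, were found by symbol for 51 of the 65 members. A TOP-like start as defined above was present in 15 of the 51 (29.4%), against 11.7% of all 27025 genes in the table. Letters of 5 short motifs were then searched on both strands of the whole window, and none of these motifs contains another. CCGGAA, the core bound by ETS factors, was found in 26 members (51.0%, against 16.7% of all genes). GGGCGG, the GC box, was found in 32 (62.7% against 38.2%), AAGATGG, the core of YY1, in 8 (15.7% against 7.28%), CACGTG, the E-box, in 5 (9.80% against 8.09%) and TATAAA, the TATA box, in 7 (13.7% against 15.7%). The TOP-like start occurred in 6 of 15 matched members that were higher in HSC-enriched cells and in 9 of 36 other members. Such matches describe letters in an annotated window, not binding or a transcript's true first base.

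Ribosomal protein messages were on balance modestly higher in HSC-enriched cells. Of the 65 members, 23 were higher and 2 lower (limma, Benjamini-Hochberg adjusted p under 0.05 over all genes), and 40 did not pass. Among all genes tested, 15.5% were higher and 12.4% lower. The median difference of the members, HSC-enriched minus Lin+, was 0.27 on the log2 scale (1.21-fold), beside 0.02 for all genes, and single members ran from -0.91 (Rpl3l) to 1.38 (Rpl14). Rises of at least 2-fold passed for 3 of the 65 members, Rpl14, Rpl27 and Rpl27a, a share near the 4.8% of all genes. All 4 HSC-enriched arrays lay above all 4 Lin+ arrays for 24 members, beside 15.9% of all genes, and below them for 1 member, beside 13.0%. Of the members' differences 48 were positive and 17 negative, beside 12861 positive and 11150 negative among all genes. The members' differences thus leaned to one direction, but were not a uniform shift of the whole family.

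**Figure D1:**
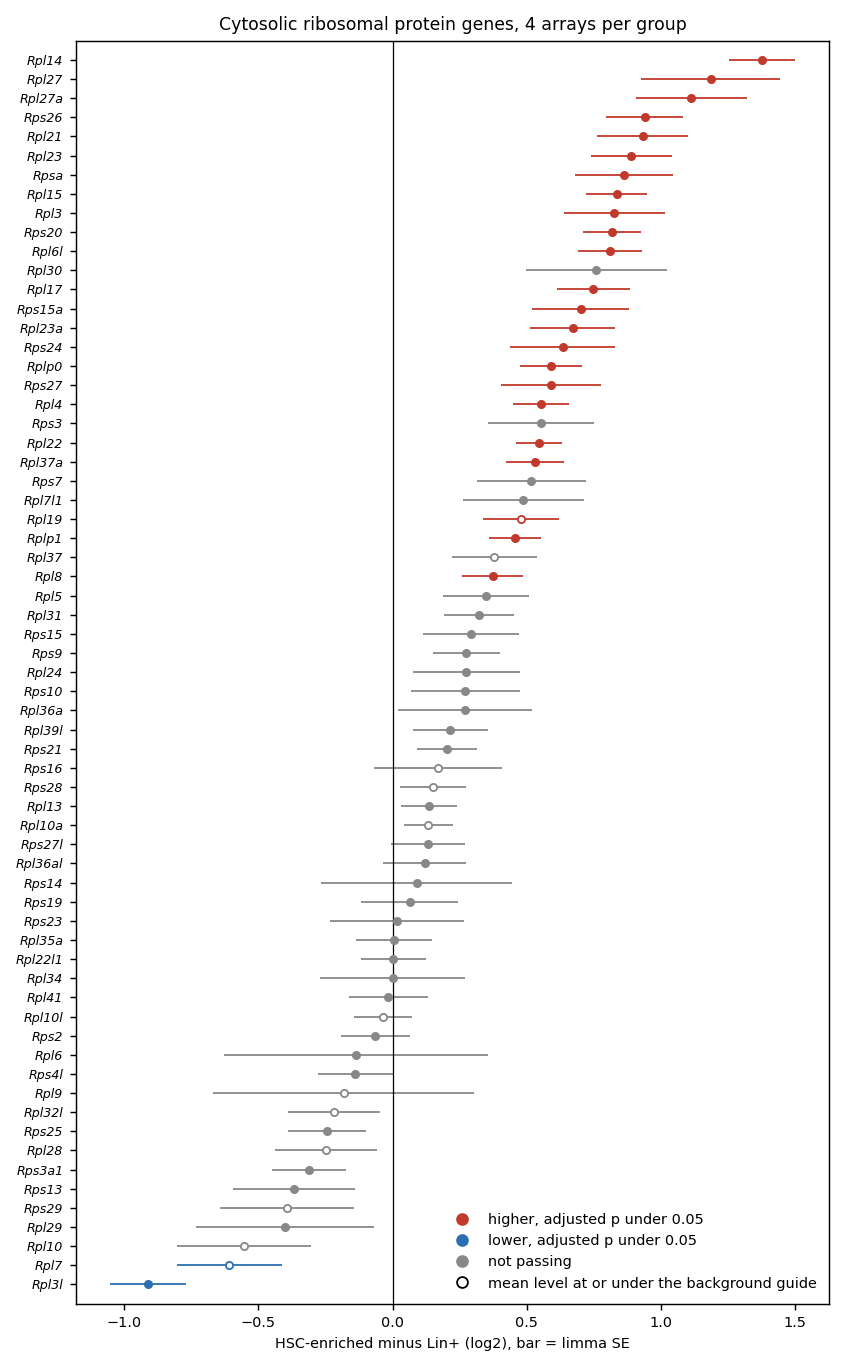
Difference between HSC-enriched and Lin+ cells (log2, horizontal axis) for each of the 65 members, ordered by size, with limma standard errors as bars (4 arrays per group). Red points passed as higher (23), blue as lower (2), and open points mark the 12 members whose mean level was at or under the background guide; the series runs from Rpl3l at -0.91 to Rpl14 at 1.38.

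Several members were read close to background. The 1091 olfactory receptor genes, which marrow cells are not known to use, had a 95th percentile of 5.09, and 12 members had a mean over all 8 arrays at or under it: Rpl7, Rpl9, Rpl10, Rpl10a, Rpl10l, Rpl19, Rpl28, Rpl32l, Rpl37, Rps16, Rps28 and Rps29. Rpl10, which encodes a core protein near the centre of the large subunit, was at 2.85 to 3.99 on Lin+ and 2.51 to 3.33 on HSC-enriched arrays. Levels of this size show that these probe sets gave little signal in either population, and do not show that the messages were scarce. Of the 12, Rpl19 passed as higher and Rpl7 as lower. Of the 53 members above the guide 22 were higher and 1 lower, where 25.1% and 19.3% of all genes above the guide were. The median difference of these 53 was 0.35, beside 0.08 for all 12991 genes above the guide. All HSC-enriched arrays lay above all Lin+ arrays for 22 of the 53 and for 3261 of the 12991. Rises of at least 2-fold passed for 3 of the 53 and 1029 of the 12991, and differences were positive for 43 and 7381. At the other end, 9 members had a mean above 10, and Rplp1 reached 13.05 where the highest value in the table was 13.13.

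Among large-subunit proteins 16 of 33 rose and 1, Rpl7, fell, with a median difference of 0.38. Of the 33, 7 were at or under the guide, and of all genes above it 25.1% rose and 19.3% fell. Rpl14, a protein of the solvent side, was at 8.27, 8.53, 8.08 and 8.29 on Lin+ replicates 1 to 4 and at 9.62, 9.66, 9.53 and 9.86 on HSC-enriched replicates 1 to 4. The lowest HSC-enriched array, at 9.53, lay well above the highest Lin+ array, at 8.53, and the groups differed 2.60-fold (1.38, SE 0.12, adjusted p = 1.6e-05), and this was the member with the largest rise. Rpl27a gave 8.72, 8.56, 7.76 and 8.12 against 9.53, 9.65, 9.21 and 9.22, with no overlap (2.16-fold, SE 0.21, adjusted p = 0.0022). Rpl27, one of the Diamond-Blackfan anaemia genes, was unequal within Lin+ cells, at 6.89, 6.03, 6.79 and 5.62, whereas HSC-enriched arrays were close together at 7.43, 7.35, 7.74 and 7.54. Its difference was 1.18 (SE 0.26, adjusted p = 0.0059), and the call was lost without HSC-enriched replicates 3 and 4 (1.06, adjusted p = 0.056).

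Further large-subunit members rose by less than 2-fold without overlap between groups. Rpl21 was at 5.56, 5.77, 5.95 and 6.25 on Lin+ and 6.68, 7.16, 6.79 and 6.63 on HSC-enriched arrays (1.91-fold, adjusted p = 0.0018). Rpl23, one of the proteins that bind the p53 regulator Mdm2 when ribosome assembly is disturbed, went from 7.34, 7.58, 7.52 and 7.88 to 8.59, 8.72, 8.36 and 8.22 (1.85-fold, adjusted p = 0.0011). The 2 sets stayed 0.34 apart at their nearest arrays for Rpl23 and 0.37 for Rpl21. Rpl15, needed for processing of large-subunit ribosomal RNA, went from 8.03, 7.64, 7.73 and 7.85 to 8.51, 8.68, 8.76 and 8.64 (1.78-fold, adjusted p = 0.00031).

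Proteins around the tunnel through which the new peptide leaves rose in 5 of 6 measured cases: Rpl17, Rpl23a, Rpl4, Rpl22 and Rpl19, with differences of 0.48 (Rpl19) to 0.75 (Rpl17). Of the 6, 1 was at or under the guide, and of all genes above it 25.1% rose. Rpl31, of the same region, was at 0.32 and did not pass (adjusted p = 0.099). Both measured proteins of the stalk, which recruits elongation factors, rose. Rplp0, the base of the stalk, was at 7.83, 8.22, 8.07 and 8.20 on Lin+ and 8.69, 8.69, 8.55 and 8.75 on HSC-enriched arrays (1.51-fold, SE 0.12, adjusted p = 0.0029). Rplp1, a protein at its tip, rose by 0.46 (adjusted p = 0.0051). Rpl5, which carries 5S ribosomal RNA into the subunit together with Rpl11, overlapped between groups, at 5.56 to 6.15 against 6.02 to 6.59 (0.35, SE 0.16, adjusted p = 0.15). The other large-subunit members that rose were Rpl3, described with its paralog below, Rpl37a (0.53) and Rpl8 (0.37). Rpl6l, the copy of Rpl6 that RefSeq lists as a pseudogene, rose as well (0.81, adjusted p = 0.00047). Rpl8 lost its call in 6 of 16 alternative settings (adjusted p up to 0.092), namely with array medians equalised and without Lin+ replicate 1, 3 or 4 or HSC-enriched replicate 1 or 2. Rpl19 lost it in 6 of 15 (up to 0.074), among them without Lin+ replicate 3 and without HSC-enriched replicate 1, 2 or 3.

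In the small subunit 6 of 22 measured proteins rose and 0 fell, with a median difference of 0.24. Of the 22, 3 were at or under the guide, and of all genes above it 25.1% rose and 19.3% fell. The share of small-subunit proteins that rose was thus near that of all genes above the guide. The difference between the subunits was not tested. Rps26, which contacts the messenger RNA ahead of the start codon, was at 9.62, 9.69, 9.45 and 9.12 on Lin+ and 10.24, 10.49, 10.32 and 10.59 on HSC-enriched arrays (1.92-fold, SE 0.14, adjusted p = 0.00062). Rpsa, a protein of the subunit's body that is also known as the laminin receptor, gave 8.08, 7.60, 8.47 and 8.06 against 8.84, 8.64, 9.05 and 9.12 (1.82-fold, SE 0.18, adjusted p = 0.0048). Neither gene's groups overlapped, but the call of Rpsa was lost without HSC-enriched replicates 3 and 4 (0.69, adjusted p = 0.058). Rps20, in the head of the subunit, rose by 0.82 (adjusted p = 0.00024) and Rps15a by 0.70 (adjusted p = 0.014).

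Rps24 and Rps27 also passed as higher, at 0.63 and 0.59, but their groups overlapped and each lost its call in 8 of 16 alternatives (adjusted p up to 0.20 and 0.099). Rps24 lost it without any 1 of Lin+ replicates 2, 3 and 4 or HSC-enriched replicates 2, 3 and 4, and Rps27 without any 1 of Lin+ replicates 1, 3 and 4 or HSC-enriched replicates 1, 2 and 4. Rps24 had 1 Lin+ array, replicate 1, at 9.23, above the lowest HSC-enriched array at 9.04. Rps3 (0.55, adjusted p = 0.063), at the entry of the messenger RNA channel, did not pass but did so in 6 alternatives. Rps7 (0.52, adjusted p = 0.093) passed in none.

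**Figure D2:**
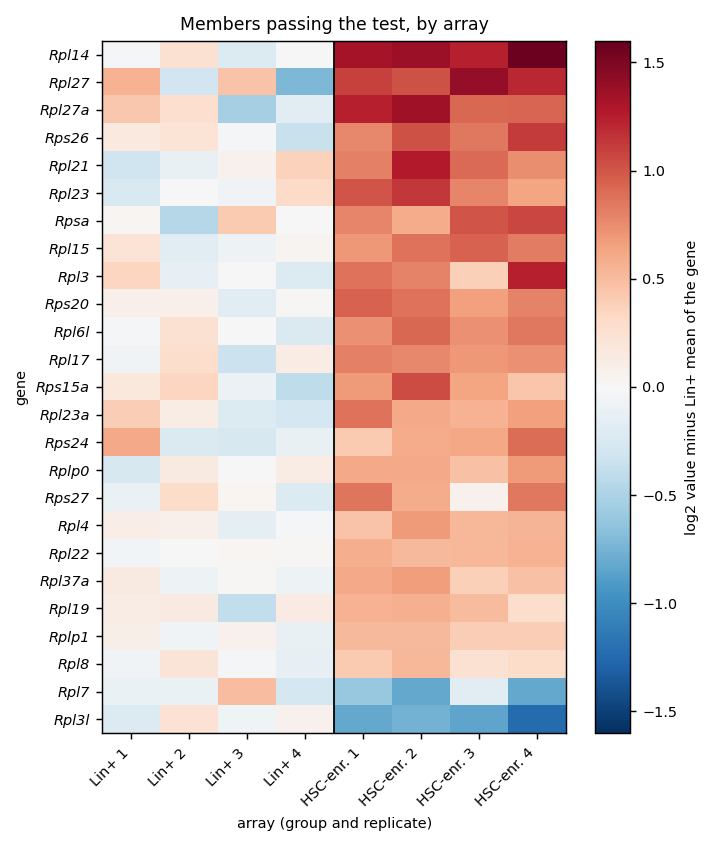
Values of the 25 members that passed the test (rows) on each of the 8 arrays (columns), as the log2 value minus the gene's Lin+ mean; red is above and blue below that mean. The 23 higher members are red on the HSC-enriched arrays, palest for Rps27 on replicate 3, and Rpl7 and Rpl3l at the foot are blue there.

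Not all arrays of the HSC-enriched group stood equally high. Averaged over the 65 members, the level was 6.99 to 7.10 on Lin+ arrays, against 7.44, 7.37, 7.27 and 7.23 on HSC-enriched replicates 1 to 4. The numbers of members above the highest Lin+ array were 39, 37, 34 and 29 on the same 4 HSC-enriched arrays. Replicates 3 and 4 were lower than 1 and 2 for 47 of 65 members, by a median of 0.13, where the median over all genes was 0.00. The 15 neutrophil marker genes, 14 of them lower in HSC-enriched cells, averaged 6.58, 6.55, 8.88 and 8.58 on HSC-enriched replicates 1 to 4, against 11.20 to 11.56 on Lin+ arrays. B cell genes (10 of 12 measured, all lower) averaged 4.86, 4.83, 6.68 and 5.01 against 9.91 to 10.53, and erythroid genes (8 of 11, all lower) 5.37 to 6.48 against 8.71 to 9.47. The part of these other cell types in the ribosomal protein values was not tested. With replicates 3 and 4 left out, 21 members were higher and 2 lower, and the members' median difference was 0.47 in place of 0.27.

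Within their groups, members spread more than the typical gene on Lin+ arrays. The median SD over 4 arrays was 0.26 on Lin+ and 0.20 on HSC-enriched arrays, against 0.18 and 0.18 for all genes. Rpl22 was the tightest member in HSC-enriched cells (SD 0.03) and Rpl6 the widest (SD 1.07, with arrays at 6.27, 4.72, 7.29 and 5.69). Differences of wide members such as Rpl6 (-0.14, SE 0.49), Rpl9 (-0.18, SE 0.49) and Rps14 (0.09, SE 0.36) could not be resolved at 4 arrays per group. Rps14, a small-subunit protein whose loss is linked to the 5q- blood disorder, was at 6.21, 7.35, 7.12 and 6.68 on Lin+ and 7.25, 7.77, 6.63 and 6.07 on HSC-enriched arrays, so that each group covered most of the other's range.

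Of the 8 paralogs of ribosomal protein genes 0 rose and 1 fell, beside 15.5% and 12.4% of all genes. Among the 8, 1 was at or under the guide, and of all genes above it 25.1% rose and 19.3% fell. With only 8 genes, these counts are no clear departure from such shares. The paralogs' differences were positive for 5 and negative for 3, with a median of 0.06 (0.00 to 0.10 with 1 array left out at a time). These differences were not tested against those of the other members. By unadjusted limma p under 0.05, 0 of the 8 were higher as well. Nearest to it was Rpl7l1, a nucleolar factor related to Rpl7, at 6.13, 7.15, 6.75 and 7.27 on Lin+ and 7.47, 7.45, 7.19 and 7.13 on HSC-enriched arrays (0.49, SE 0.23, adjusted p = 0.15). The gene that fell was Rpl3l, the paralog of Rpl3 known from heart and skeletal muscle, at 5.88, 6.33, 6.04 and 6.17 on Lin+ and 5.29, 5.34, 5.26 and 4.87 on HSC-enriched arrays (fell by 0.91, SE 0.14, adjusted p = 0.00065). Its HSC-enriched mean, 5.19, was close to the background guide. Rpl3, which lines the centre where peptide bonds form, went the other way, from 5.24, 4.76, 4.90 and 4.68 to 5.77, 5.69, 5.28 and 6.15 (1.77-fold, SE 0.19, adjusted p = 0.0070), with Lin+ values near the guide as well.

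Rpl22 and Rpl22l1 encode related proteins that can take the same place in the large subunit, and Rpl22 is known to hold down the message of its paralog and to be needed in developing lymphocytes. Rpl22 was at 6.58, 6.61, 6.65 and 6.64 on Lin+ and 7.20, 7.14, 7.15 and 7.17 on HSC-enriched arrays. The groups were far apart for their spread (1.46-fold, SE 0.09, adjusted p = 0.00078). Rpl22l1 was at 5.64, 5.44, 5.92 and 5.59 against 5.78, 5.62, 5.62 and 5.58, a difference of 0.00 (SE 0.12, adjusted p = 0.99). Within each array Rpl22 minus Rpl22l1 was 0.72 to 1.18 in Lin+ and 1.42 to 1.59 in HSC-enriched cells, with no overlap.

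That within-array ratio was compared between groups for the 6 pairs measured, by a two-sided exact permutation test over the 70 splits of the arrays, whose smallest possible p is 0.0286. The ratio of Rpl22 to Rpl22l1 differed by 0.54 (SE 0.10) and that of Rpl3 to Rpl3l by 1.74 (SE 0.34), each with exact permutation p = 0.0286, or 0.0857 adjusted over the 6 pairs. Rpl7 to Rpl7l1 differed by -1.09 (SE 0.39, exact permutation p = 0.0571, adjusted 0.114). For Rps27 to Rps27l the difference was 0.46 (SE 0.25, exact permutation p = 0.114), for Rpl10 to Rpl10l -0.52 (SE 0.37, exact permutation p = 0.20) and for Rpl36a to Rpl36al 0.15 (SE 0.26, exact permutation p = 0.63). No pair passed after adjustment, and with 4 arrays per group the 2 lowest could not go lower.

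Of these other pairs, Rps27, a zinc-finger protein of the small subunit, was at 7.02, 7.42, 7.15 and 6.90 on Lin+ and 7.97, 7.72, 7.20 and 7.96 on HSC-enriched arrays, so that replicate 3 lay within the Lin+ range. Rps27l, a p53-responsive paralog, was at 7.10 to 7.64 against 7.46 to 7.74. Rpl7 fell by 0.61 (SE 0.19, adjusted p = 0.040) at levels of 4.47 to 5.25 against 3.94 to 4.57, under or near the guide. Its groups overlapped, and it lost its call in 7 of 15 alternatives (adjusted p up to 0.11), among them without any 1 of Lin+ replicates 1, 2 and 3 or HSC-enriched replicates 1, 2 and 4. Rpl36a and Rpl36al, at differences of 0.27 and 0.12, both overlapped between groups (adjusted p = 0.52 and 0.66).

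**Figure D3:**
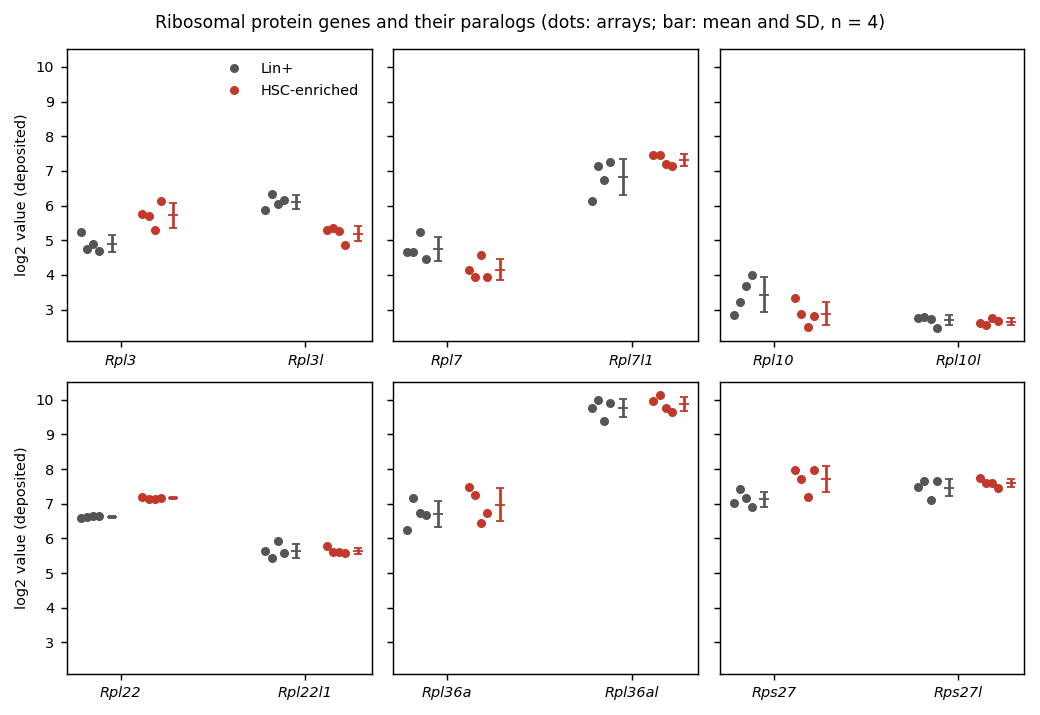
Deposited log2 values on each array for 6 ribosomal protein genes and their paralogs (left and right in each panel), Lin+ in grey and HSC-enriched in red, with the mean and SD (n = 4) beside the dots. Rpl22 separates the groups while Rpl22l1 overlaps, and Rpl3 and Rpl3l move in opposite directions; levels of different genes come from different probes and are not comparable.

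Among members that did not pass, the 4 with the smallest difference were Rpl34, Rpl22l1, Rpl35a and Rps23. Rpl35a, a Diamond-Blackfan anaemia gene whose start is shown above, was at 7.02, 6.89, 7.03 and 7.15 on Lin+ and 7.28, 6.91, 7.21 and 6.70 on HSC-enriched arrays (0.00, SE 0.14). Rpl34 had a mean of 7.36 in both groups, but HSC-enriched replicates 1 and 2, at 7.91 and 7.80, lay above all Lin+ arrays and replicate 4, at 6.57, below them. Rps23, a protein of the decoding centre, was at 6.04 to 6.80 against 5.82 to 7.01 (0.02, SE 0.25). Rps19, the first gene linked to Diamond-Blackfan anaemia, was at 7.41, 7.21, 7.28 and 6.56 on Lin+ and 6.97, 7.14, 7.23 and 7.37 on HSC-enriched arrays, with wide overlap (0.06, SE 0.18, adjusted p = 0.86). Over the disease's 20 listed genes, 15 were measured, 7 rose and 0 fell, and their median difference was 0.52. Of all genes above the guide 25.1% rose and 19.3% fell. The 7 were Rpl27, Rps26, Rpl15, Rps20, Rps15a, Rps24 and Rps27.

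Genes that make and serve the ribosome were also examined, from lists of their own. For scale, 25.1% of all genes above the guide rose and 19.3% fell. Of 44 genes for processing of ribosomal RNA and assembly of subunits 33 rose and 1 fell, with a median difference of 0.70. Gnl3 (nucleostemin), Nop58, a core protein of the particles that methylate ribosomal RNA, and Nat10, which acetylates it, rose 2.70-fold, 2.47-fold and 2.23-fold (adjusted p = 1.7e-05, 5.0e-05 and 9.4e-05). Riok3, a kinase of small-subunit maturation that is also active in red cell precursors, fell by 0.66. Of 12 genes for transcription of ribosomal RNA 5 rose and 0 fell (median 0.33), led by Polr1b, a catalytic subunit of RNA polymerase I, and Rrn3, its initiation factor, at 2.20-fold and 1.61-fold. Among 7 genes that escort or import ribosomal proteins 4 rose and 0 fell (median 0.46), with the importin genes Ipo5 and Ipo7 at 1.75-fold and 1.47-fold.

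Of other messages with a TOP sequence 11 of 17 rose and 0 fell, with a median of 0.41. Eif3e, a subunit of an initiation factor, Eif4b, which assists the initiation helicase, and Nap1l1 rose 1.98-fold, 1.69-fold and 1.58-fold. Without HSC-enriched replicates 3 and 4 the count was 7, with a median of 0.47. Eef1a1, which encodes the elongation factor that brings transfer RNA to the ribosome, was read near background on all arrays but Lin+ replicate 4 and did not pass (-0.40, adjusted p = 0.63). Of 15 genes that regulate these messages 5 rose: Mycn (4.46-fold), Myc (2.95-fold), which drive ribosomal protein and RNA synthesis genes, Pdcd4, Larp1 and Eif4e. Eif4e was read under the background guide on every array, at 4.29 to 4.78. The share that rose was not far from the 25.1% of all genes above the guide. None of the 15 fell (limma adjusted p under 0.05), though 1 did with a trend and robust estimates, without Lin+ replicate 2 or without HSC-enriched replicate 1. Mtor itself was at -0.22 (adjusted p = 0.20).

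Mitochondrial ribosomal proteins, which belong to the separate ribosome of that organelle, passed in both directions. Of 76, 10 rose and 7 fell, where 15.5% and 12.4% of all genes did, with a median difference of 0.12. All but 1 of the 76 were above the guide, and of all genes above it 25.1% rose and 19.3% fell. Mrps6, Mrpl13 and Mrps5 rose 2.49-fold, 1.77-fold and 1.71-fold, and Mrpl33, Mrps21 and Mrpl18 fell by 0.78, 0.74 and 0.74. With HSC-enriched replicates 3 and 4 left out, 16 rose and 2 fell, the median was 0.23, and Mrps21 no longer passed (adjusted p = 0.059). Without HSC-enriched replicate 1 the median was 0.06. None of these lists was compared with another by a test.

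**Figure D4:**
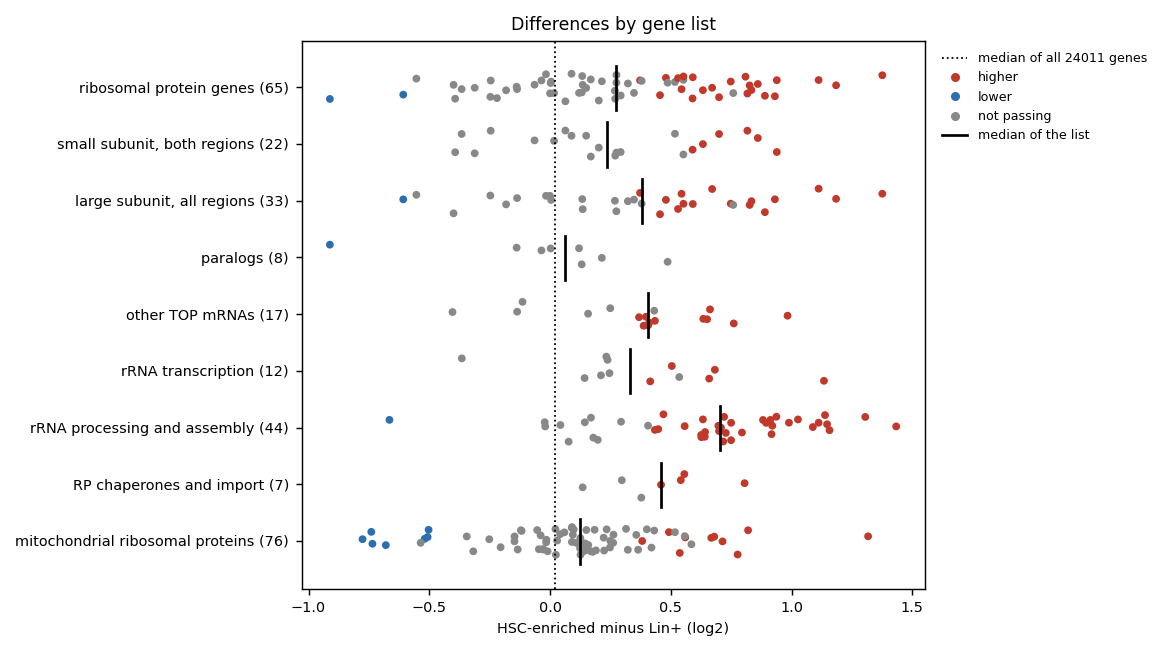
Difference between HSC-enriched and Lin+ cells (log2) for each gene of 9 lists, with the number measured in brackets; red and blue points passed as higher and lower, black bars are list medians and the dotted line is the median of all genes. The bar of rRNA processing and assembly stands at 0.70 and that of the ribosomal protein genes at 0.27.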

How the data were processed

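Total RNA was amplified (Ovation Pico) and hybridised to MouseGene ST arrays of Affymetrix. The labels' protocols name array versions 1.0st and 2.0st without saying which sample was on which. The authors deposited log2 expression values, and the submitters' processing notes name RMA and Partek. Each array is 1 value per gene, so the number of arrays limits precision. Probe sets were named from the platform annotation: 24015 of 24973 had 1 symbol and 958 none, and 23922 were updated through RefSeq Entrez IDs. For the 4 genes with an extra probe set the brighter was kept, leaving 24011 genes. The groups, 4 arrays each, were compared with limma 3.58.1 (lmFit and eBayes) in R 4.3.3, without covariates, with Benjamini-Hochberg adjustment over all genes and a threshold of 0.05. No batch or scan date is given in the sources used here. In simulated data with 24011 genes, 71 were changed 1.41-fold, 70 were changed 2-fold and 59 were changed 4-fold. This fit recovered 18.3%, 75.7% and 98.3% of them. In the real data 3716 genes passed as higher and 2969 as lower. The adjusted threshold was therefore stricter in the simulation, and its shares do not give the recovery in the real data.

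Members given in full were the 8 largest rises and up to 8 falls that passed without overlap, the 6 paralog pairs measured, Rps14, Rps19, Rpl5 and Rplp0, and the 4 members that did not pass with the smallest difference; of each other list, up to 3 rises and 3 falls that passed. Further members named beside them were chosen after their values were seen. The members and lists were chosen with earlier results of these data known. The paralog pairs were listed with them, but the permutation test of their ratios was added after the data were examined. Alternatives were array median centring, repeated quantile normalization, a filter at the median of all values, trend with robust estimates, array weights, a replicate block, mean of probe sets, leaving out each array, and leaving out HSC-enriched replicates 3 and 4. RefSeq names pseudogenes for 44 of the 65 members; probe positions were not used here, and how far probe sets also read those copies was not tested.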

Additional observations from a re-analysis of the deposited data

Results flagged for a closer look

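In 6 of the 130 sets of 4 arrays (65 members in each group) 1 array stood far from the other 3 by Dixon's criterion, and chance alone gives about 1 in 20. On Lin+ arrays these were Rps24, with replicate 1 at 9.23 and the others at 8.36 to 8.51, Rpl19, with replicate 3 at 4.44 and the others at 4.94 to 4.97, and Rpl10l, with replicate 4 at 2.48 and the others at 2.74 to 2.79, far below the background guide. On HSC-enriched arrays they were Rps15, a protein of the small subunit's head, with replicate 3 at 5.76 and the others at 5.54 to 5.55, Rps10, a Diamond-Blackfan anaemia gene, with replicate 1 at 6.85 and the others at 6.07 to 6.11, and Rpl29, of the large subunit, with replicate 4 at 6.59 and the others at 8.09 to 8.15.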

How the results depend on the processing

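Across the alternatives named under the processing, 17 of the 23 higher members kept their call in all 16, 6 lost it in at least 1, 8 members that had not passed gained one, and 32 passed in none. Of the members that had passed, 0 changed direction. The number of higher members was 22 with array medians centred, 26 with repeated quantile normalization and 24 of 53 members tested with the filter at the median. Leaving out 1 array at a time gave 19 to 24 higher, 1 to 2 lower and a median difference of 0.23 to 0.34. The number of lower members was 1 with the filter, which removed Rpl7, and 1 with array weights. Without HSC-enriched replicates 3 and 4 the median difference was 0.47, and the cause was not tested. With the replicate block 22 members were higher and 2 lower, and the median difference was 0.27. Deviations from the group mean were correlated across genes between same-numbered samples of the 2 groups, at -0.15, 0.06, 0.03 and -0.10. The main fit did not pair samples by number. These correlations cannot show whether same-numbered samples shared an animal or a sort. The 4 arrays per group and low signal for 12 members limit what could be detected. Simulated recovery at 1.41-fold was 18.3%, in a setting with far fewer changed genes than passed here.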

Other observations

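The table also holds 9 probe sets named for processed pseudogenes of ribosomal protein genes. Of these 5 were higher in HSC-enriched cells and 0 lower (limma, adjusted p under 0.05), with a median difference of 0.36: Rps27a-ps3 (1.31), Rpl36-ps12 (0.84), Rps19-ps3 (0.83), Rps15a-ps5 (0.79) and Rpl34-ps2 (0.36). Of the 9, 4 were at or under the background guide. Among all genes 15.5% were higher and 12.4% lower, and among those above the guide 25.1% and 19.3%. Without HSC-enriched replicates 3 and 4, 2 of the 9 passed as higher, with a median difference of 0.51. Rps19-ps3 and Rpl34-ps2 passed while Rps19 (0.06) and Rpl34 (-0.00) did not, and whether the difference between copy and parent holds was not tested. Among the 44 members for which RefSeq names a pseudogene 18 were higher and 1 lower, against 5 higher and 1 lower among the other 21, or 8 higher with repeated quantile normalization. At or under the guide were 9 of the 44 and 3 of the 21, and of all genes above it 25.1% were higher and 19.3% lower. The sets of 44 and 21 members differ in kind, as most of the 8 paralogs, of which 0 rose, are among the 21. The comparison was not tested.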
